A study of Mus musculus with 4 samples.

Results

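Hemoglobin genes were followed through every barcode of a single-cell RNA sequencing experiment on the mouse hippocampus. The 5 genes are Hba-a1 (ENSMUSG00000069919) and Hba-a2 (ENSMUSG00000069917) for the alpha chain, Hbb-bs (ENSMUSG00000052305) and Hbb-bt (ENSMUSG00000073940) for the beta chain, and Alas2 (ENSMUSG00000025270), 5 of the 31055 genes in the count files. They were taken by symbol from a list selected on measured values of these same libraries: their UMIs in red cell barcodes, endothelial cells, microglia and other classes, and a higher level in Dp2Yey microglia. Values in the 3 kinds of cells named are therefore given as a description, with no test. The other classes took part in the selection too, so fits of these genes there are also read as a description.

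Hemoglobin carries oxygen in red blood cells and is built from alpha and beta chains, each holding a haem group. Alas2 makes the red cell form of the enzyme that starts haem synthesis, and its messenger, like those of the globins, is made by red cell precursors in the bone marrow. Young red cells released into the blood, called reticulocytes, still hold globin messenger after the nucleus is lost, so tissue taken with blood in its vessels yields droplets with almost nothing but globin RNA.

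Hippocampi of 4 male mice aged 3 months were dissociated and each mouse gave 1 droplet library, where UMIs are distinct RNA molecules counted by their tags and a barcode stands for 1 droplet. The 2 mice labelled Dp2Yey carried Dp(10)2Yey, a duplication on chromosome 10 of a stretch that matches part of human chromosome 21, on a C57BL/6J background, from colonies kept as hemizygous mutants. The other 2 mice were wild-type (WT) littermates on the same background and carried no duplication. The study compared the genotypes as a model of Down syndrome, and it removed red blood cells, which it knew by high Hba-a1, before its own comparison.

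The libraries held 1039 barcodes and 3002546 UMIs in WT_1, 1708 and 6848466 in WT_2, 1372 and 5112759 in Dp2Yey_1, and 2345 and 9612011 in Dp2Yey_2. The median depth per barcode was 2049, 3669.5, 3386.5 and 3696 UMIs in the same order. Dp2Yey_2 stood apart from the other 3 libraries in red blood cells, as given below, so the ratios of summed globin between genotypes and the fitted differences of the 5 genes are also given without it. In all, 8 barcode sequences occurred in more than 1 library, and 0 of them were red cell barcodes. With 2 mice per genotype, the smallest 2-sided p of an exact permutation test is 0.33, so single values were not tested. Intervals are 95% intervals (exact binomial for shares, exact Poisson for levels) and cover counting error only, not differences between mice.

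Both alpha genes lie on chromosome 11 and both beta genes on chromosome 7, while Alas2 is on chromosome X. None of the 5 therefore lies on chromosome 10 with the duplication. In the annotation of build GRCm38, Hba-a1 spans chr11:32283511-32284465 (plus strand), Hba-a2 chr11:32296489-32297298 (plus), Hbb-bs chr7:103826534-103828096 (minus), Hbb-bt chr7:103812524-103813996 (minus) and Alas2 chrX:150547375-150570638 (plus). Each alpha or beta pair is made of near copies: the last 300 transcript bases, where this assay reads, were 89.6% identical between Hba-a1 and Hba-a2 and 86.4% between Hbb-bs and Hbb-bt. Of 201 windows of 100 bases there, 85 occurred letter for letter in the other alpha gene and 41 in the other beta gene. The division of UMIs within a pair is therefore less certain than the sum of the 4 globin genes, which is used below.

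Since the 5 genes were abundant in the same barcodes, their promoters are shown (RefSeq, build GRCm38.p6, 300 bases around the start of the gene), and 5 of 5 were found. The windows are chr11:32283422-32283721 (plus strand) for Hba-a1, chr7:103827879-103828178 (minus) for Hbb-bs, chr7:103813874-103814173 (minus) for Hbb-bt and chrX:150547167-150547466 (plus) for Alas2, each printed along the gene's own strand. Capitals mark 4 motifs on either strand: GATAA (the GATA motif), the CACCC motif, the CCAAT box and the letters TATAA. A match on the opposite strand appears as its reverse complement, and neighbouring matches can run together or overlap. The window of Hba-a2 is not printed, since it held the same letters as that of Hba-a1, shifted by a few bases. The 6 edits between these windows (98.0% identity) all lay at their ends, and the shared stretch was identical.
Hba-a1: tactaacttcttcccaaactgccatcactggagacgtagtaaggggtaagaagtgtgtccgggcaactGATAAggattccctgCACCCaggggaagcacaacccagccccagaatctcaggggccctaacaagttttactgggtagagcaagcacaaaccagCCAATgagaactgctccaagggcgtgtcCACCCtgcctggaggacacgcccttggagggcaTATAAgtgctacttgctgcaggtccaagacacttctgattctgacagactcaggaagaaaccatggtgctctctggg
Hbb-bs: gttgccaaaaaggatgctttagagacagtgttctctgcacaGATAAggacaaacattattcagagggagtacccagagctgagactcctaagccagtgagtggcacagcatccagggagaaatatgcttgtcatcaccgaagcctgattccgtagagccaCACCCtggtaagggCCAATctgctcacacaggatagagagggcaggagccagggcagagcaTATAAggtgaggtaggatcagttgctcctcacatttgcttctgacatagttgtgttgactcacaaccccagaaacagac
Hbb-bt: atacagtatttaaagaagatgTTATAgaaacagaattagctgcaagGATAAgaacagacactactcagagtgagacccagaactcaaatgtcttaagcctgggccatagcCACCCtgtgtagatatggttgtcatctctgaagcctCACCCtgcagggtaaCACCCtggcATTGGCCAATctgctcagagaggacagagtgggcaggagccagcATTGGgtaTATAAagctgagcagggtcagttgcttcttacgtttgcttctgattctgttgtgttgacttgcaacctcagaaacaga
Alas2: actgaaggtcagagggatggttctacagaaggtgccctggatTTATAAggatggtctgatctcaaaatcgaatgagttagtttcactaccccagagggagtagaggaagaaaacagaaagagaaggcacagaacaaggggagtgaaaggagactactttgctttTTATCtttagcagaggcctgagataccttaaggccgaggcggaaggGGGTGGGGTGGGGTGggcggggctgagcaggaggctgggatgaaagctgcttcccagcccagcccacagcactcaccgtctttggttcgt

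All 5 promoters held GATAA, the core letters of the GATA motif, which 25.4% of 32851 promoters of the same length also held. All 5 held CACCC, found in 57.5% of promoters, and TATAA, found in 24.9%. The letters CCAAT, found in 37.4% of promoters, were present in the 4 globin genes and not in this window of Alas2. Distances are counted from the RefSeq start that sets the window, which for all 5 genes lies inside the span given above. In Hba-a1, GATAA began 182 bases before that start and TATAA 27 bases before it, in Hbb-bs the distances were 209 and 29 bases, and in Alas2 they were 86 bases for GATAA and 207 and 208 for TATAA. The letters were chosen after the sequences were read, and a match is a description of the sequence and not a bound site. Between the beta genes the promoters were 73.3% identical, well below the pair of alpha genes.

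Hba-a1, Hba-a2, Hbb-bs, Hbb-bt and Alas2 together took 3.81% of the 24575782 UMIs, but they were found in few barcodes: 4968 of 6464 barcodes held none of them. The share of a barcode's UMIs that came from the 5 genes lay mostly in 2 ranges. Of the 1496 barcodes with any such UMI, 1259 lay at 1% or less and 172 above 90%, with 18 between 1% and 5%, 18 between 5% and 25%, 11 between 25% and 50%, 5 between 50% and 75% and 13 between 75% and 90%. Barcodes with at least 50% of their UMIs from the 5 genes were called red cell barcodes, a rule that uses the members themselves. The nearest on the inside were at 55.1% (Dp2Yey_2), 56.4% (Dp2Yey_1) and 72.1% (WT_2), and the nearest outside at 43.3% (WT_2), 42.4% and 37.4% (both Dp2Yey_2).

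**Figure D1:**
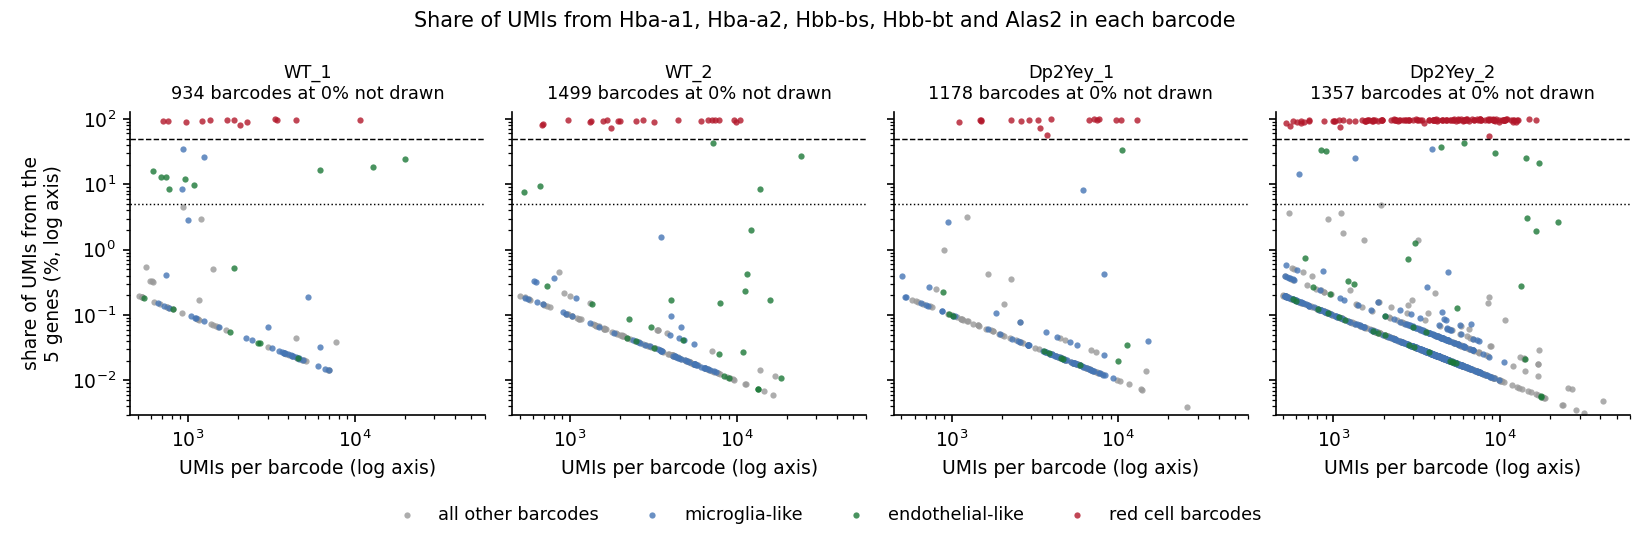
Share of UMIs from the 5 genes in each barcode (y axis, percent, log scale) against its depth (x axis, UMIs, log scale), 1 panel per library, with barcodes at 0% not drawn. The dashed line is 50% and the dotted line 5%; red points above the dashed line number 13, 22, 18 and 137, green endothelial-like cells make up most of the points between the lines, and the slanting rows at the bottom are cells with 1, 2 or a few such UMIs.

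There were 13 red cell barcodes in WT_1, 22 in WT_2, 18 in Dp2Yey_1 and 137 in Dp2Yey_2. As a share of barcodes this was 1.25% (0.668% to 2.13%), 1.29% (0.809% to 1.94%), 1.31% (0.779% to 2.07%) and 5.84% (4.93% to 6.87%). Both Dp2Yey values lay above both WT values, but the first 3 libraries had overlapping intervals and only Dp2Yey_2 was clear of the rest. The 2 Dp2Yey mice were farther from each other than Dp2Yey_1 was from either WT mouse. Globin UMIs in red cell barcodes made up 1.10%, 1.27%, 1.65% and 7.14% of all UMIs of WT_1, WT_2, Dp2Yey_1 and Dp2Yey_2. With the study's minimum of 200 genes per cell, only 1, 2, 4 and 10 of these barcodes would have been kept.

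Red cell barcodes held 891136 of the 936462 UMIs of the 4 globin genes, or 95.2%. By library the share was 77.1% in WT_1, 88.2% in WT_2, 95.1% in Dp2Yey_1 and 97.2% in Dp2Yey_2. Each gene taken alone was placed the same way, with 95.4% of its UMIs in red cell barcodes for Hba-a1, 95.5% for Hba-a2, 94.8% for Hbb-bs, 96.1% for Hbb-bt and 93.7% for Alas2. Hbb-bs was detected in the most barcodes, 1017, followed by Hba-a1 in 579, Hba-a2 in 492, Hbb-bt in 347 and Alas2 in 162.

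The mix of chains within red cell barcodes was nearly the same in all 4 mice. Hbb-bs, the beta gene with the most UMIs, gave 49.5% of globin UMIs in WT_1, 49.1% in WT_2, 48.1% in Dp2Yey_1 and 51.1% in Dp2Yey_2. Hba-a1 gave 24.8%, 24.2%, 24.7% and 23.5%, and Hba-a2 19.8%, 18.1%, 19.3% and 17.6%. Alpha genes together therefore gave 43.5% ± 1.68 in WT and 42.5% ± 2.03 in Dp2Yey (SD, n = 2), and the genotypes overlapped. These are shares of UMIs counted at the 3′ end, which were not scaled by transcript length.

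Hbb-bt, the minor beta gene, differed widely between single red cell barcodes. Over whole libraries it gave 5.89%, 8.67%, 7.98% and 7.80% of globin UMIs in WT_1, WT_2, Dp2Yey_1 and Dp2Yey_2. From barcode to barcode its share of beta UMIs ran from 0% to 26.6%, with medians of 3.63%, 5.24%, 7.93% and 8.88%. By contrast the share of Hba-a2 among alpha UMIs stayed between 35.2% and 50.6% in all 190 barcodes, with a median of 42.5%, while alpha genes as a share of globin UMIs ran from 26.4% to 71.9%. The spread in Hbb-bt was thus found within every library and was wider than the distance between library medians.

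Alas2 was detected in 145 of the 190 red cell barcodes: 7 of 13 in WT_1, 14 of 22 in WT_2, 12 of 18 in Dp2Yey_1 and 112 of 137 in Dp2Yey_2. Its level there, in CPM (UMIs of a gene scaled by all UMIs of the same cells), was 402 in WT_1, 803 in WT_2, 614 in Dp2Yey_1 and 885 in Dp2Yey_2, so the genotypes overlapped. Barcodes with Alas2 also had more Hbb-bt, a median of 11.3% of beta UMIs against 1.85% in the 45 without. The same order held in each library, with 5.90% against 2.40% in WT_1, 14.5% against 1.43% in WT_2, 14.8% against 2.59% in Dp2Yey_1 and 11% against 1.85% in Dp2Yey_2. Depth moved with it, at a median of 5595 UMIs with Alas2 and 1511 without, and its part in this difference was not tested.

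Few other genes were found in red cell barcodes, whose median number of genes was 39 in WT_1, 70.5 in WT_2, 67.5 in Dp2Yey_1 and 68 in Dp2Yey_2. Outside the 5 genes and mitochondrial genes, the 10 with the most UMIs were Gm42418, Ftl1, Ubb, Sec61g, Cst3, Bpgm, Rpl41, AY036118, Malat1 and Mkrn1. Bpgm, the enzyme that makes the red cell's regulator of oxygen release, stood at 642 CPM, 5.86-fold over all other cells. Mkrn1, on the list of genes of late red cell maturation, stood at 543 CPM and 7.67-fold. Ftl1, a ferritin chain that stores iron, and Ubb, a ubiquitin gene, were at 0.463 and 0.391 of their CPM in other cells. The direction depends on the scale, since globin takes most UMIs of these barcodes: scaled to the UMIs outside the 5 genes, Ftl1 was 10.8-fold and Ubb 9.12-fold higher than in other cells, Bpgm 136-fold and Mkrn1 179-fold. Cst3 and Malat1, abundant in other hippocampal cells, were lower on both scales over all libraries together, at 0.0245 and 0.0163 of their CPM and at 0.571 and 0.379 outside the 5 genes, though 187 of the 520 UMIs of Malat1 lay in 3 barcodes of Dp2Yey_1.

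Genes of the red cell outside the 5 were looked for by list. Of 22 such marker genes in the files, 8 were detected in the red cell barcodes of WT_1, 13 in WT_2, 15 in Dp2Yey_1 and 18 in Dp2Yey_2, and their sum was 1408, 2886, 3012 and 2655 CPM. Bpgm was the most abundant, and Ank1, Rhag, Gata1 and Trim58 had 0 UMIs. Of the 13 other genes of haem synthesis, 7 were detected, with 247 CPM in sum, of which Slc25a39, a mitochondrial carrier, gave 127. Of 9 other globins in the files, 2 were detected, and the embryonic genes Hba-x, Hbb-y and Hbb-bh1 had 0 UMIs. Of 11 transcription factors that drive red cell formation, 4 were detected, with 22 UMIs (23.6 CPM) in sum, and Gata1 and Tal1 were at 0. The CPM values of these lists are scaled to all UMIs, most of which are globin here.

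Markers of other cell types were present in the same barcodes. The 21 microglia markers summed to 28.7 CPM in WT_1, 792 in WT_2, 1584 in Dp2Yey_1 and 487 in Dp2Yey_2, against 59924 CPM in microglia-like cells at or below 5% globin. Scaled to the UMIs outside the 5 genes, which are few there, the same markers were at 608, 14496, 26384 and 12486 CPM. C1qa was the most abundant, and each of the 21 had at least 1 UMI over all red cell barcodes. Platelet, fibroblast and T cell and NK cell lists had 0 UMIs. The part of other cells' RNA in the counts of red cell barcodes was not tested.

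Below 50%, the remaining 6264 barcodes with at least 200 genes fell into clusters named by fixed markers, such as microglia-like, and the 5 genes were kept out of the clustering. Endothelial cells line the vessels in which blood runs. The 288 endothelial-like cells held 4.29% of all globin UMIs, at 41143 CPM in WT_1, 32022 in WT_2, 19393 in Dp2Yey_1 and 42609 in Dp2Yey_2. WT averaged 36583 ± 6450 CPM and Dp2Yey 31001 ± 16416 (SD, n = 2), a log2 ratio of -0.24, and the genotypes overlapped, with the highest and lowest values both in Dp2Yey mice. Vtn and Rgs5, markers of the mural cells that wrap vessels, were also among the 10 leading genes of this cluster, as were Hbb-bs and Hba-a1.

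Nearly all of this came from a few cells. Of the 288 endothelial-like cells, 22 (7.64%, 4.85% to 11.3%) had over 5% of their UMIs from the 5 genes, and these held 95.2% of the class's globin UMIs. There were 9 such cells in WT_1, 5 in WT_2, 1 in Dp2Yey_1 and 7 in Dp2Yey_2. In Dp2Yey_1 a single cell, called a doublet, held 99.6% of the globin UMIs. Without called doublets the class was at 87.4 CPM in Dp2Yey_1 and 24017 in WT_2, unchanged in the other 2 libraries, and the log2 ratio of Dp2Yey to WT was -0.61. Among all 3196 cells of the classes other than endothelial-like and microglia-like, 0 cells exceeded 5% (upper limit 0.115%).

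The 22 cells were placed in this class by clustering and its endothelial markers, so their endothelial profile is a description and no test of what they are. Their 24 endothelial markers summed to 33981 CPM against 39307 CPM in the other endothelial-like cells, with 24 of 24 detected and Cldn5, a tight junction gene, the most abundant in both. Red cell markers outside the 5 genes summed to 1384 CPM against 934, with 13 and 10 of 22 detected, Bnip3l the most abundant in both, and Epb42, Rhag, Klf1 and Gata1 at 0 in both. Their median depth was 5248.5 UMIs against 2048.5 over the class, 2 of the 22 were called doublets, and the part of droplets that hold more than 1 cell was not tested. Alas2 had 42 UMIs in these 22 cells and 0 in the 266 others, a floor of 3.05 CPM.

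Without these cells, the endothelial-like level was 93.0 CPM in WT_1, 1255 in WT_2, 86.7 in Dp2Yey_1 and 4541 in Dp2Yey_2, and the genotypes again overlapped. The log2 ratio of Dp2Yey to WT then changed sign to 1.78, and without Dp2Yey_2 as well it was -2.96. With all cells kept, it was 0.22 without Dp2Yey_1 and -0.92 without Dp2Yey_2. It was also -0.93 where barcodes from 25% up were taken as red cells, 0.03 where only those from 75% up were, and 0.01 without the top cell of each library. No direction between genotypes can be given for endothelial-like cells.

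Microglia, the resident immune cells of the brain, take up dead cells and debris. The 2582 microglia-like cells held only 0.412% of all globin UMIs. Summed over cells, the level was 642 CPM in WT_1 (598 to 688), 50.2 in WT_2 (41.7 to 59.9), 350 in Dp2Yey_1 (324 to 378) and 639 in Dp2Yey_2 (613 to 665). WT_1 and Dp2Yey_2 were high and WT_2 low, so the genotypes overlapped, at 346 ± 418 CPM in WT and 494 ± 204 in Dp2Yey (SD, n = 2, log2 ratio 0.52). As in endothelial-like cells, most UMIs sat in few cells: 7 cells over 5% (3 in WT_1, 0 in WT_2, 1 in Dp2Yey_1 and 3 in Dp2Yey_2) held 77.7% of them. The direction depended on the libraries and cells used, with a log2 ratio of -0.38 without WT_2, 3.30 without WT_1, 0.02 without Dp2Yey_2 and -0.25 without the top cell of each library. It was 3.17 without cells with over 20% mitochondrial UMIs, 1.85 and 1.498 with red cell limits of 25% and 75%, and 1.84 with globins kept in the clustering. Under these 4 choices both Dp2Yey libraries lay above both WT libraries, for example at 350 and 264 CPM against 120 and 50.2 with the limit of 25%, so the overlap also depended on the processing. The cells of the class changed as well: with globins kept in the clustering, the cluster led by Tyrobp and Cst3 (572 cells) took no name and left it.

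In the 2575 microglia-like cells at or below 5%, both Dp2Yey libraries lay above both WT libraries. The level was 58.3 CPM in WT_1, 50.2 in WT_2, 77.9 in Dp2Yey_1 and 146 in Dp2Yey_2, an average of 54.2 ± 5.70 in WT and 112 ± 48.4 in Dp2Yey (SD, n = 2), 2.07-fold. This is the difference that took part in the choice of the genes, so it carries no test. Its size rested on Dp2Yey_2: without that library the log2 ratio was 0.52, against 1.05 with it, and the 2 Dp2Yey mice differed by more than Dp2Yey_1 and WT_1 did.

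Taken gene by gene in these cells, the levels of the alpha genes were higher in both Dp2Yey libraries, and those of the beta genes overlapped. Hba-a1 was at 9.71 CPM in WT_1, 11.9 in WT_2, 24.5 in Dp2Yey_1 and 29.3 in Dp2Yey_2. Hba-a2 followed the same order, at 8.09, 10.7, 16.3 and 21.7 CPM. Hbb-bs was at 33.2, 24.3, 32.2 and 84.2 CPM, so Dp2Yey_1 lay below WT_1 and only Dp2Yey_2 stood out. Hbb-bt was at 7.28, 3.29, 4.90 and 11.1 CPM, again with WT_1 above Dp2Yey_1. Alas2 had 2 UMIs in all 2575 cells, 1 in WT_2 and 1 in Dp2Yey_2, too few for a comparison. Counted as cells with at least 1 UMI, the beta genes did not overlap: Hbb-bs was found in 4.39%, 4.67%, 8.40% and 24.6% of cells and Hbb-bt in 0.924%, 0.452%, 1.56% and 3.83%. Among these cells 2 in WT_1, 1 in WT_2, 2 in Dp2Yey_1 and 2 in Dp2Yey_2 held at least 10 globin UMIs. These cells had 38 of 72 globin UMIs in WT_1, 54 of 122 in WT_2, 60 of 143 in Dp2Yey_1 and 32 of 525 in Dp2Yey_2, so the levels of the first 3 libraries rest heavily on 1 or 2 cells each. Whether the genes differ from each other was not tested.

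**Figure D2:**
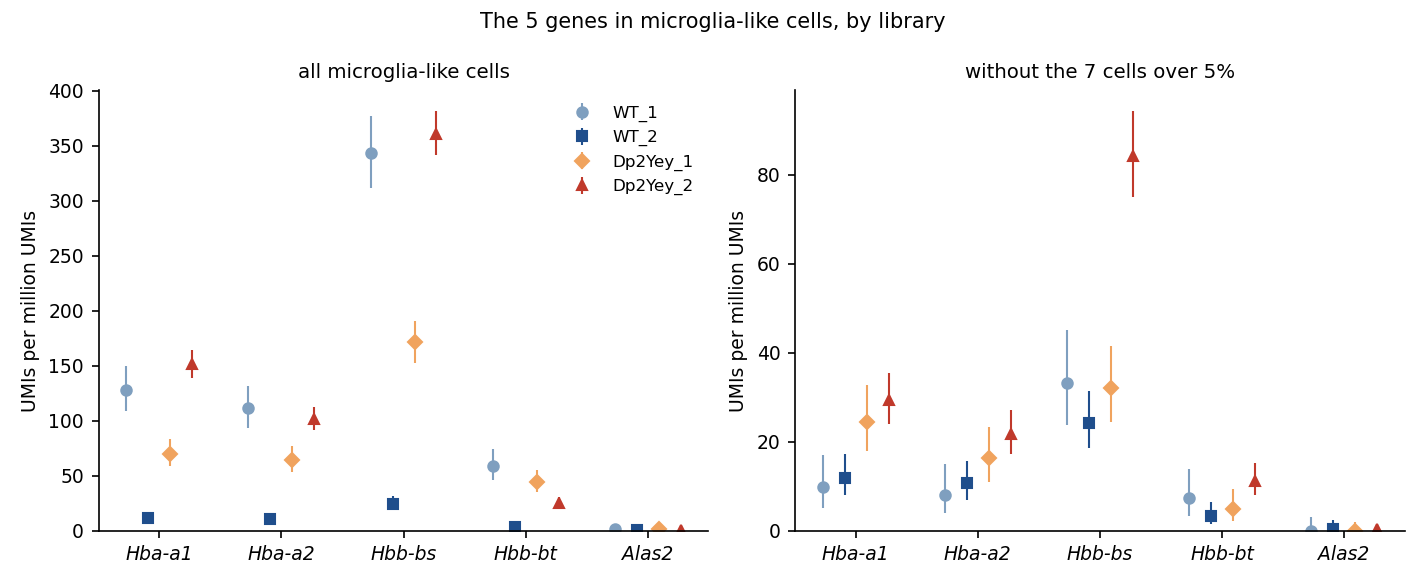
Level of each of the 5 genes in microglia-like cells of each library (y axis, CPM; bars are exact Poisson 95% intervals), over all 2582 cells (left) and without the 7 cells over 5% (right; the y axes differ). On the right, Hba-a1 and Hba-a2 are higher in both Dp2Yey libraries than in both WT libraries, while Hbb-bs reaches 84.2 CPM only in Dp2Yey_2 and lies between 24.3 and 33.2 CPM in the other 3.

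Counted as cells, 35 of 436 microglia-like cells held a globin UMI in WT_1 (8.03%, 5.65% to 11%), 55 of 664 in WT_2 (8.28%, 6.30% to 10.6%), 72 of 513 in Dp2Yey_1 (14.0%, 11.1% to 17.3%) and 371 of 969 in Dp2Yey_2 (38.3%, 35.2% to 41.4%). In most of them it was a single UMI: 77.1%, 80.0%, 81.9% and 72.2% of the cells with any. Droplets also take up free RNA, so these shares were set beside those of oligodendrocytes, the cells that form myelin. Oligodendrocyte-like cells had a share of 6.30% (2.76% to 12%) in WT_1, 9.90% (6.83% to 13.8%) in WT_2, 13% (8.89% to 18.1%) in Dp2Yey_1 and 39.5% (34.0% to 45.2%) in Dp2Yey_2. The intervals of the 2 classes overlapped in all 4 libraries. Median depths were 2856, 3763, 3668 and 3774 UMIs in microglia-like cells and 4360, 5049, 5049 and 4998 in oligodendrocyte-like cells. By level, microglia-like cells at or below 5% were higher, at 58.3, 50.2, 77.9 and 146 CPM against 16.5, 18.8, 56.5 and 137 in oligodendrocyte-like cells. No class can be taken as free of globin transcripts, so UMIs of free RNA and of the cells themselves cannot be told apart, and the share is not read as expression by microglia.

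At equal depth the intervals still overlapped. After each cell was thinned to 500 UMIs, the microglia-like share was 3.67% in WT_1, 2.26% in WT_2, 3.51% in Dp2Yey_1 and 10.4% in Dp2Yey_2, and the genotypes overlapped, with Dp2Yey_1 below WT_1. The oligodendrocyte-like share was 1.57%, 2.24%, 1.79% and 7.12%. It was lower in each library, with intervals that overlapped those of microglia-like cells. Astrocyte-like cells had 6.16%, 4.90%, 2.45% and 13.6%, and in 3 of the 4 libraries this was above the microglia-like share.

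Microglia-like cells came from 3 clusters of unlike depth. In Dp2Yey_2, cells with a globin UMI made up 38.7% of the cluster led by Il1a and Atf3, 36.7% of the cluster led by Tyrobp and Cst3 and 38.4% of the cluster with P2ry12 and Tmem119, at median depths of 4233, 772 and 3506 UMIs. After thinning to 500 UMIs the same shares were 5.96%, 28.9% and 7.28%, so at equal depth the low-depth cluster was highest, and its level in cells at or below 5% was 492 CPM against 121 and 172. Before thinning, Dp2Yey_2 had the highest share of the 4 libraries in each of the 3 clusters. By level in cells at or below 5%, both Dp2Yey libraries lay above both WT libraries in the clusters led by Il1a and by Tyrobp. In the cluster with P2ry12 and Tmem119 WT_1 was highest, at 179 CPM against 36.2 in WT_2, 133 in Dp2Yey_1 and 172 in Dp2Yey_2.

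Dp2Yey_2 was the high library well beyond microglia. Before thinning it had the highest share of cells with a globin UMI in 9 of 9 named classes, from 35.3% in immature neuron-like and border macrophage-like cells to 58.8% in ependymal-like cells. After thinning it was highest in 7 of 9, the exceptions being ependymal-like cells, with WT_2 highest, and border macrophage-like cells, with WT_1 highest. By summed level it was highest in 6 of 9, and WT_1 was highest in the other 3, microglia-like, oligodendrocyte precursor-like and border macrophage-like cells. It was also the library with 137 of the 190 red cell barcodes, and the part of these in its counts for other cells was not tested.

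**Figure D3:**
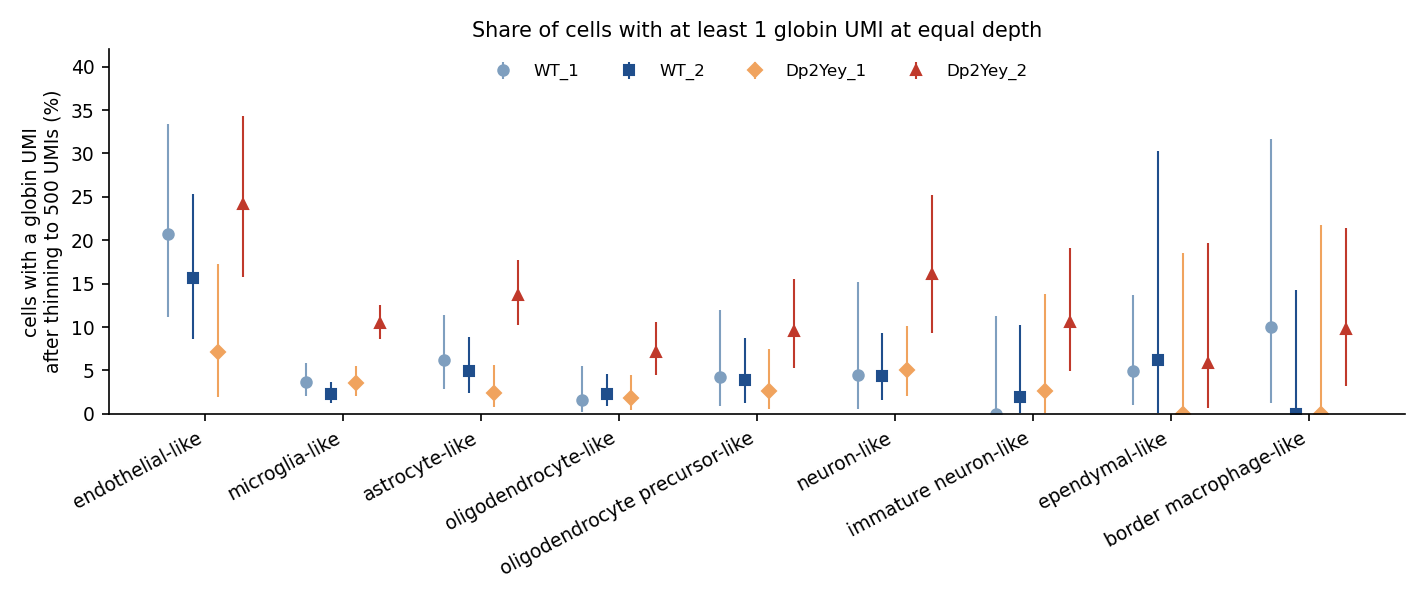
Share of cells with at least 1 globin UMI after every cell was thinned to 500 UMIs (y axis, percent; bars are exact binomial 95% intervals), by class and library. Dp2Yey_2 is highest in 7 of 9 classes, endothelial-like cells included, and the microglia-like value of 10.4% in Dp2Yey_2 lies between those of oligodendrocyte-like (7.12%) and astrocyte-like cells (13.6%).

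Over the 3196 cells of the other 7 classes, the level was 90.5 CPM in WT_1, 28.9 in WT_2, 50.5 in Dp2Yey_1 and 182 in Dp2Yey_2. Dp2Yey_1 lay between the WT libraries, so the genotypes overlapped, at a log2 ratio of 0.96. The ratio was -0.24 without Dp2Yey_2, 0.36 without WT_2, 1.61 without Dp2Yey_1 and 2.01 without WT_1. WT_1 was high there mostly through oligodendrocyte precursor-like cells, the cells that renew oligodendrocytes, where 78 of its 84 globin UMIs lay in 2 cells.

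In WT the classes stood in a clear order only for red cell barcodes and endothelial-like cells. Red cell barcodes averaged 948421 ± 5467 CPM, endothelial-like cells 36583 ± 6450 and microglia-like cells 346 ± 418 (SD, n = 2). Then came oligodendrocyte precursor-like cells at 184 ± 205, border macrophage-like cells at 133 ± 146 and astrocyte-like cells at 63.3 ± 20.4. Neuron-like (28.8 ± 8.98), ependymal-like (27.1 ± 11.1), immature neuron-like (22.4 ± 6.76) and oligodendrocyte-like cells (17.7 ± 1.68) were lowest. From microglia-like cells down, the ranges of neighbours overlapped, except between astrocyte-like cells, at 48.8 to 77.7, and neuron-like cells, at 22.5 to 35.2. The place of microglia-like cells rests on the few cells over 5%: without them they averaged 54.2 CPM in WT, below astrocyte-like cells, and 112 in Dp2Yey, below neuron-like cells. In Dp2Yey with all cells, endothelial-like cells (31001 ± 16416) were again followed by microglia-like cells, which did not overlap the next, neuron-like cells at 209 ± 152, while the remaining neighbours, from 195 ± 218 in astrocyte-like to 51.0 ± 31.5 in ependymal-like cells, all did.

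**Figure D4:**
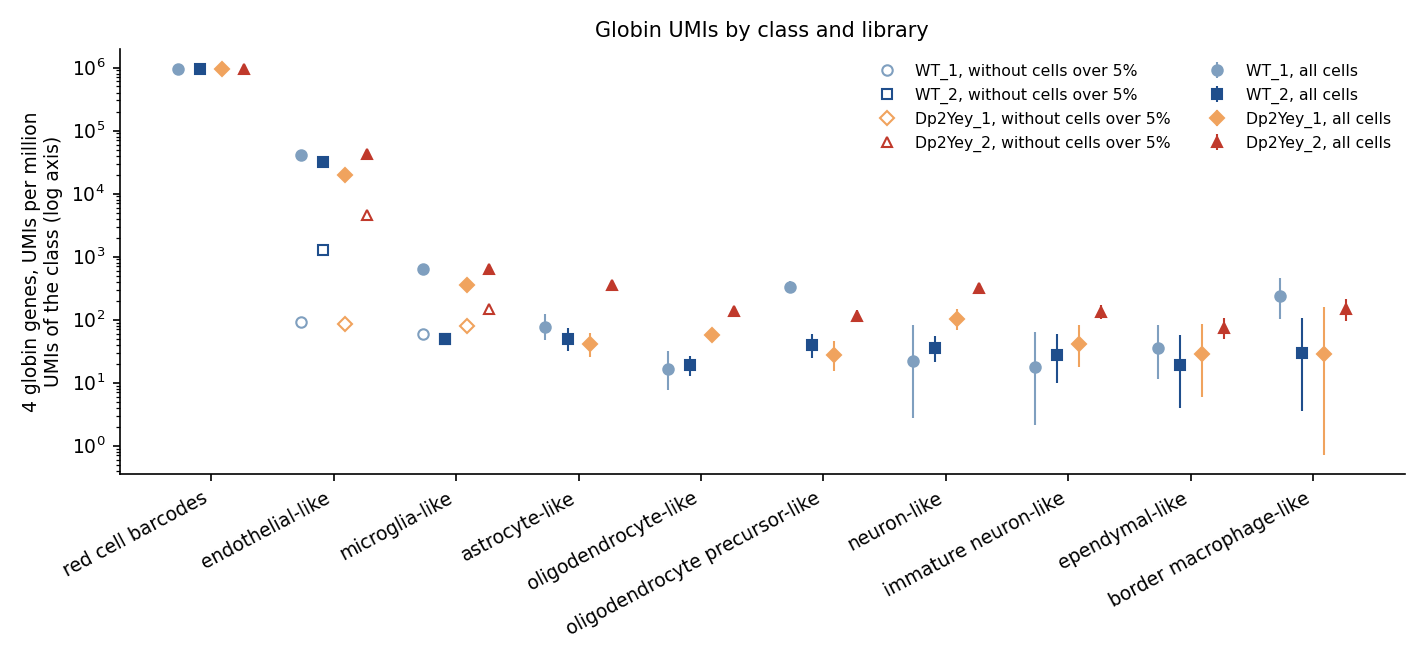
Summed level of the 4 globin genes in each class and library (y axis, CPM, log scale; bars are exact Poisson 95% intervals). Open symbols leave out cells over 5%, which exist only among endothelial-like and microglia-like cells; the level drops from 948421 CPM in WT red cell barcodes to 36583 CPM in WT endothelial-like cells and to 17.7 CPM in WT oligodendrocyte-like cells.

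In each compartment, taken over all libraries, Hbb-bs was the most abundant of the 4 globin genes and Hbb-bt the least. Alpha genes gave 41.6% of globin UMIs in red cell barcodes, 38.3% in endothelial-like cells over 5%, 39.2% in microglia-like cells over 5%, 38.9% in the other microglia-like cells, 45.1% (42.9% to 47.4%) in the other endothelial-like cells and 45.3% (42.4% to 48.1%) in the other 7 classes. Libraries differed within a compartment: in the other microglia-like cells the alpha share was 30.6% in WT_1, 45.1% in WT_2, 52.4% in Dp2Yey_1 and 34.9% (30.8% to 39.1%) in Dp2Yey_2, the last below the 41.1% of red cell barcodes in that library. It was 61.1% in the other endothelial-like cells of WT_2. In endothelial-like cells at or below 5% Hbb-bt gave 1.62% (1.10% to 2.29%) of globin UMIs, against 7.83% in red cell barcodes and 7.66% in the other microglia-like cells. In those endothelial-like cells 388 of 1919 UMIs came from WT_2 and 1500 from Dp2Yey_2. Few cells carried most of these UMIs, so the intervals, which treat UMIs as independent, are too narrow.

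**Figure D5:**
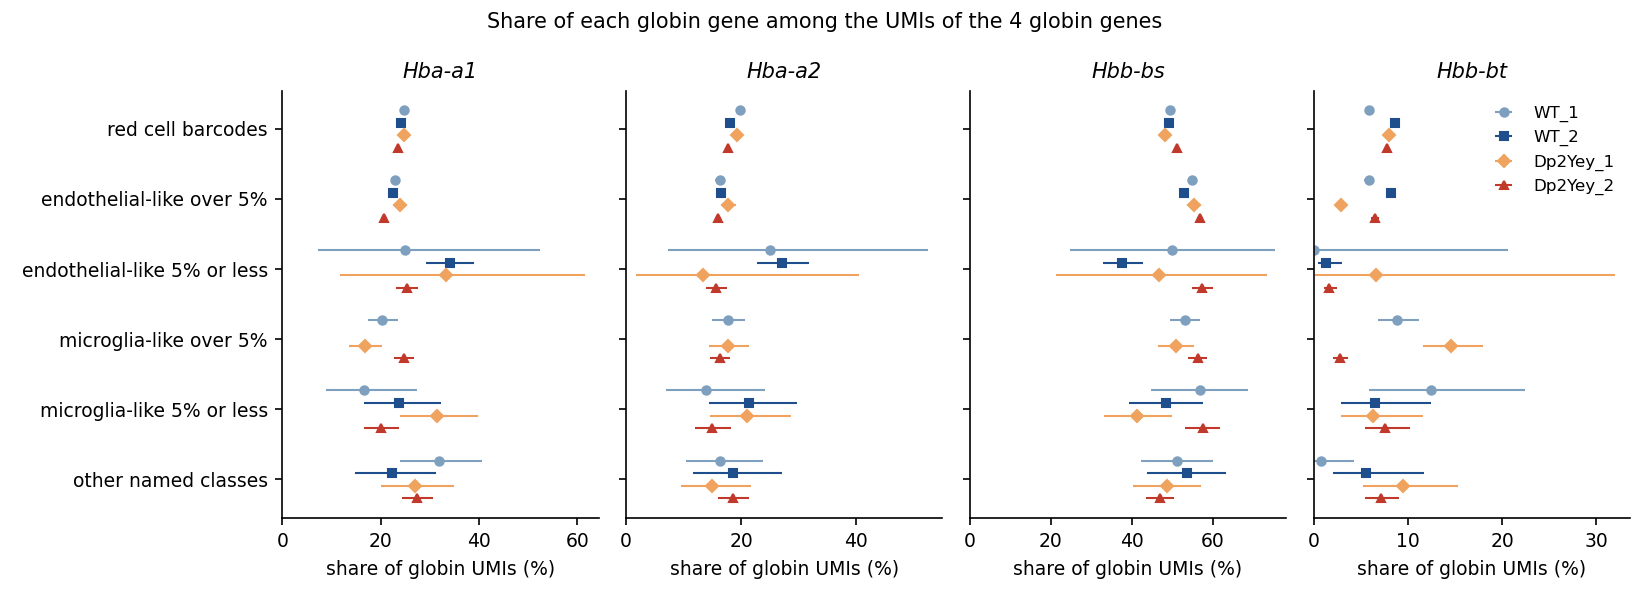
Share of each globin gene among the UMIs of the 4 globin genes (x axes, percent, 1 panel per gene with its own scale) by compartment and library, with exact binomial 95% intervals as bars. Most points lie near the red cell values (23.7% for Hba-a1, 50.6% for Hbb-bs), the spread and the intervals are wide where UMIs are few, and Hbb-bt over all libraries is lowest, at 1.62%, in endothelial-like cells at or below 5%.

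In the 7 other classes, the genotypes were compared by edgeR on UMIs summed per library. The UMIs of these classes were also in view when the genes were chosen, and they come from the same 4 libraries as the microglia-like cells, so they are not independent support. The calls and p-values of the chosen genes therefore describe the fits, and no conclusion on genotype is drawn from them. Of 35 pairs of a gene and a class, 7 passed the filter on low counts, and 0 of these 7 were called at an adjusted p under 0.01. DESeq2 also called 0 pairs. Over all genes tested, edgeR called 0.136% in astrocyte-like cells, 0.992% in border macrophage-like cells and 0% in oligodendrocyte-like, oligodendrocyte precursor-like, neuron-like, immature neuron-like and ependymal-like cells. A gene could pass the filter through its high libraries alone, so beyond the count called no summary over the 7 pairs is given.

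In oligodendrocyte-like cells both tested genes were higher in Dp2Yey but not called. With replicate number as a block both were called (edgeR adjusted p = 1.09e-06 for Hbb-bs and 0.000481 for Hba-a1). Whether equal numbers share a preparation day is not stated. Hbb-bs had 6 UMIs in WT_1, 17 in WT_2, 33 in Dp2Yey_1 and 121 in Dp2Yey_2, or 11, 10.0, 26.6 and 69.6 CPM, so both Dp2Yey libraries were above both WT libraries. The fitted log2 difference was 2.25 (SE 0.44, edgeR adjusted p = 0.171), higher in 2 of 2 Dp2Yey libraries, though in Dp2Yey_1 a single cell held 39 of the 70 globin UMIs of the class. Without Dp2Yey_2 it was 1.35 (edgeR adjusted p = 0.260). Hba-a1 had 3.66, 6.48, 18.6 and 31.7 CPM in the same order, with a log2 difference of 2.14 (SE 0.44, edgeR adjusted p = 0.180), higher in 2 of 2 Dp2Yey libraries, and of 1.66 without Dp2Yey_2. In neuron-like cells Hbb-bs was at 22.5, 18.5, 57.6 and 168 CPM, a log2 difference of 2.61 (edgeR adjusted p = 0.679), or 2.05 without Dp2Yey_2.

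Astrocyte-like and oligodendrocyte precursor-like cells did not show this order. In astrocyte-like cells, which support neurons and cover vessels with their endfeet, Hbb-bs was at 49.1 CPM in WT_1, 26.5 in WT_2, 15.5 in Dp2Yey_1 and 134 in Dp2Yey_2, so Dp2Yey_1 was lowest. Its log2 difference of 1.21 (SE 0.34, edgeR adjusted p = 0.143) turned to -1.12 without Dp2Yey_2. In oligodendrocyte precursor-like cells Hba-a1, Hba-a2 and Hbb-bs had log2 differences of -1.49, -0.50 and -0.97 (edgeR adjusted p = 1 for each), and all 3 changed sign, to 0.80, 0.81 and 0.92, without WT_1. Without Dp2Yey_2 they were -3.51, -1.55 and -2.18 (edgeR adjusted p = 0.0410, 0.999 and 0.0410). Those 3 genes were highest there in WT_1. In immature neuron-like cells, where no pair passed the filter, Hbb-bs had 2, 4, 4 and 31 UMIs, or 17.6, 18.1, 20.5 and 71.7 CPM, with overlapping intervals in WT_1, WT_2 and Dp2Yey_1.

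The count of 0 did not hold under every alternative. It became 8 of 31 pairs without the filter on low counts. There, edgeR calls over all genes of all named classes, microglia-like and endothelial-like cells included, rose from 16 to 134. The number of all genes tested without the filter is not given, so no share over all genes stands beside the 8 of 31. With replicate number as a block the count became 2 of 7, and calls over all genes of the same classes rose to 59. The called pairs all had log2 differences above 0, but not all were higher in both Dp2Yey libraries. In astrocyte-like cells the called Hba-a1 was at 12.3 CPM in WT_1, 12.2 in WT_2, 7.74 in Dp2Yey_1 and 120 in Dp2Yey_2. Hba-a2, also called there, was at 16.4, 6.10, 5.80 and 78.7 CPM, so Dp2Yey_1 was lowest for both genes. A fit without 1 library leaves 1 library in a genotype, so calls from such fits are not counted. Without WT_2, Hbb-bs and Hba-a1 in oligodendrocyte precursor-like cells had log2 differences of -2.1 and -2.7. Without Dp2Yey_1, Hbb-bs had 1.89 in astrocyte-like, 2.75 in oligodendrocyte-like, 2.94 in neuron-like and -0.39 in oligodendrocyte precursor-like cells.

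Genes that work with hemoglobin were tested in the same way in all 9 named classes, in 6 lists. Over 277 tests of a list gene in a class, edgeR called 0, with 11 at an unadjusted p under 0.05, and DESeq2 called 0, with 2. Over all genes, the share at an unadjusted p under 0.05 by edgeR ran from 2.60% in oligodendrocyte-like to 4.42% in endothelial-like cells. In the 2 classes not yet given, microglia-like and endothelial-like cells, edgeR called 0% of all genes tested. Without the filter on low counts the count was 3 (Car1, Car2 and Ucp2 in immature neuron-like cells), while edgeR calls over all genes rose from 16 to 134. A fit without 1 library leaves 1 library in a genotype, so calls from such fits are not counted. Without Dp2Yey_1, Car1 and Car2 had log2 differences of 10.1 and 5.13 in immature neuron-like cells, and Car2 2.55 in oligodendrocyte precursor-like cells. Without Dp2Yey_2, Fth1 had 1.502 in neuron-like cells. These list genes were all higher in Dp2Yey in the fits named, and the cluster of immature neuron-like cells was led also by Ccl5, Top2a and Car1 itself. In that cluster the red cell markers outside the 5 genes summed to 1702 CPM, with 17 of 22 detected and Prdx2 the most abundant, while 10 of 11 erythroid transcription factors were detected, Klf1 with 6 UMIs and Gata1 with 2. Bcl11a, on the list of these factors, passed the filter on low counts there and in neuron-like cells, so the list is not particular to red cells. T cell and NK cell markers summed to 1292 CPM, with 13 of 13 detected. The part of such cells in the values of Car1 and Car2 was not tested.

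In microglia-like cells the median of each list lay near that of all genes. The 12 tested genes of haem synthesis had a median log2 difference of -0.07, with 4 above 0, and the 15 genes of iron and haem handling 0.09, with 10 above 0. The 9 genes of red cell membrane and enzymes had a median of 0.04, the 5 erythroid transcription factors -0.03 and the 11 genes of reticulocyte maturation 0.01. The median over all 9217 genes tested was 0.00, with 50.5% above 0. No gene of the list of other globins passed the filter there. In endothelial-like cells the medians ran from -0.16 for 4 erythroid transcription factors to 0.12 for 6 genes of haem synthesis, against 0.01 over 4724 genes.

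In the other classes some medians of few genes lay farther from 0, such as 0.57 for 2 genes of haem synthesis in immature neuron-like cells, 0.49 and -0.41 for 3 erythroid transcription factors in oligodendrocyte precursor-like and astrocyte-like cells and -0.36 for 2 genes of haem synthesis in ependymal-like cells. By edgeR 0 genes were called in any list. Haem synthesis had 0 called in 55 tests, with 4 lower and 0 higher in Dp2Yey at an unadjusted p under 0.05 by edgeR. Iron and haem handling had 0 in 84 tests (2 higher, 1 lower), red cell membrane and enzymes 0 in 49 (0 and 0), erythroid transcription factors 0 in 23 (1 higher), reticulocyte maturation 0 in 64 (2 higher) and other globins 0 in 2 (1 lower). These totals include microglia-like and endothelial-like cells.

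Likeness to the globin sum was measured across classes. Over 36 profiles, the 9 named classes in the 4 libraries without red cell barcodes, the genes most like the sum of the 4 globins in log2 CPM, out of 13220 genes, were St8sia6 (r = 0.925), Cldn5 (r = 0.919), Spaar (r = 0.917), Slc39a8 and Ptprb. Next came Pear1, Edn1, Tnfsf10, Tinagl1 and She, the last at r = 0.909. Of these 10, Cldn5 and Ptprb, a phosphatase of vessel walls, were on the endothelial list. The 5 genes themselves had r with that sum of 0.991 for Hba-a1, 0.989 for Hba-a2, 0.971 for Hbb-bs, 0.955 for Hbb-bt and 0.854 for Alas2, where each globin is part of the sum. The 36 profiles share 4 libraries, and 4 of them, the endothelial-like ones, lie far above the rest. The values thus rest on the endothelial-like level, which took part in the choice of the genes and of which 22 cells hold 95.2%.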

How the data were processed

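Hippocampal cells of 4 mice were measured by 3′ single-cell RNA sequencing, 1 library a mouse. The files hold UMI counts per gene and barcode, which the authors made with Cell Ranger 3.0.2 and a custom mm10 reference and deposited for called cells, and barcodes called empty were not analysed here. The lowest barcode had 500 UMIs. The genes and lists were chosen with earlier results of these data known.

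Red cell barcodes had at least 50% of UMIs from the 5 genes. Other barcodes with at least 200 genes (6264 cells; 10 barcodes fell below) were clustered on genes in more than 3 cells with Seurat 5.3.0 (canonical correlation analysis, 2000 variable genes without globins and Alas2, 50 dimensions, resolution 0.2). Clusters took the name of a class when 3 or more of the 10 genes highest in fold over other cells (10 CPM added) were markers of it. The 2 clusters without a name (198 cells) were left out of the classes. Doublets (57 cells, 0.91%, Scrublet in scanpy 1.11.5) were kept. Cells were thinned to 500 UMIs for shares at equal depth.

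Genotypes were compared with edgeR 4.0.16 (quasi-likelihood, TMM, filterByExpr, no block, adjusted p under 0.01 over all genes of a class) on UMIs summed per library and class with at least 10 cells per library, and with DESeq2 1.42.0 as an alternative. Intervals are Clopper-Pearson for shares and exact Poisson for CPM, from scipy 1.17.1. R 4.3.3, Python 3.11.15, edlib 1.3.9.post1 for sequence identity and matplotlib 3.10.9 were used. The mice were prepared on 2 consecutive days with 1 of each genotype a day, and which library numbers share a day is not stated. Genes named are the 5, the top gene of each list in red cell barcodes, the 10 genes with the most UMIs there, the 10 most like the globin sum by Pearson r of log2 CPM (10 CPM added, at least 50 UMIs), and every list gene called. Other list genes in the text, such as markers at 0, were chosen after their values were seen. Alternatives were other size factors, no filter, other red cell limits, globins kept in the clustering, resolution 0.5, no doublets, a limit of 20% on mitochondrial UMIs, and each library left out.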

Additional observations from a re-analysis of the deposited data

How the results depend on the processing

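The count of 0 of the 5 genes called in the 7 classes stayed at 0 with DESeq2's size factors, with DESeq2, at an adjusted p under 0.05, without doublets and without cells with over 20% mitochondrial UMIs. It was also 0 without cells over 5% globin, an alternative chosen after seeing the data. It was 8 of 31 tests without the filter on low counts and 2 of 7 with replicate number as a block. Those 2 were Hbb-bs and Hba-a1 in oligodendrocyte-like cells (edgeR adjusted p 1.09e-06 and 0.000481). Over all genes of all named classes, microglia-like and endothelial-like cells included, edgeR called 16 in the main fit, 134 without the filter and 59 with the block. With each library left out in turn, the lone library of an arm was assumed to vary like the pair of the other arm. Calls from those fits are therefore not counted. Called list genes were 0 with the block and under the same alternatives, and 3 without the filter. The cause was not tested.

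Whether equal replicate numbers share a preparation day is not stated. The deviations of the replicates from their genotype mean correlated at -0.05 over 13721 genes for all named classes, and from 0.01 in astrocyte-like to 0.30 in border macrophage-like cells for single classes, with 0.16 in microglia-like and 0.25 in oligodendrocyte-like cells.

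The log2 ratio of Dp2Yey to WT of summed globin in microglia-like cells (0.52) was -0.25 without the top cell of each library, 3.17 without cells with over 20% mitochondrial UMIs, 1.85 and 1.498 with red cell limits of 25% and 75%, 1.84 with globins in the clustering, and -0.38 to 3.30 with each library left out. In endothelial-like cells (-0.24) it was 1.78 without cells over 5%, 0.0054 without the top cells, -0.93 and 0.0327 with red cell limits of 25% and 75%, and -0.92 to 0.22 with each library left out. In the other 7 classes (0.96) it was -0.24 to 2.01 with each library left out. Under the other alternatives these ratios kept their sign. With the block they were 1.40, -0.34 and 0.91, each the mean of ratios that differ in direction between number 1 and number 2: -0.87 and 3.67 in microglia-like cells, -1.09 and 0.41 in endothelial-like cells, and -0.84 and 2.65 in the other classes. The cause of these shifts was not tested. Class membership also changed with the clustering. With globins kept, the cluster led by Tyrobp and Cst3 (572 cells) took no name, and at resolution 0.5 a cluster of 913 cells led by Klf4 and Rgs2 took none.

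Red cell barcodes with at least 200 genes numbered 1, 2, 4 and 10 in WT_1, WT_2, Dp2Yey_1 and Dp2Yey_2, since most have fewer genes. With a limit of 25% they numbered 15, 24, 19 and 143, and with 75% 13, 21, 16 and 135.

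Limits. Each genotype had 2 mice, and 1 library, Dp2Yey_2, held 137 of 190 red cell barcodes, so genotype and a difference between single mice cannot be told apart. Depth limits the shares: most cells with a globin UMI held 1. Droplets without a cell were not analysed here, so the level of free RNA was not measured. Copies of the alpha genes, and of the beta genes, share stretches of sequence, so how their UMIs divide within a pair is uncertain.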
